A study of Mus musculus with 24 samples.

Results

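The small leucine-rich proteoglycan genes Dcn, Lum and Bgn and the elastic fibre genes Eln, Fbn1, Mfap4, Fbln5, Efemp1, Emilin1 and Ltbp4 were followed in the liver. These 10 genes were chosen by symbol, out of 41388 genes in each library, and each symbol matched 1 gene identifier. Earlier results of these data were known when they were chosen. All 10 were among the 13052 genes that passed the limit on low counts. Bulk RNA sequencing of poly(A)-selected liver RNA was done in 4 groups of male mice on the C57BL/6J background. WT mice were littermates that carried the floxed Lpin1 allele without Cre, and Adn-Lpin1-/- mice carried the same floxed allele with Cre driven by the adiponectin promoter, so that lipin 1, a phosphatidic acid phosphohydrolase, was deleted in adipocytes. Lpin1 mRNA of the liver therefore does not check the genotype labels. At 8 weeks of age mice of both genotypes began a diet that drew 10% (LFD) or 60% (HFD) of its kcal from fat, and livers were taken after a 4 hour fast. The labels give 16 weeks of feeding, and the study's methods give 5 weeks. Each group had 5 single mice and 1 pool of liver RNA. Total counts per single-mouse library ranged from 36260187 in WT LFD to 81072794 in Adn-Lpin1-/- HFD. On the LFD depth did not overlap between genotypes, at 36260187 to 45999456 counts in WT and 51095146 to 61435897 counts in Adn-Lpin1-/- mice.

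Small leucine-rich proteoglycans are secreted proteins that bind collagen fibrils, and set how those fibrils assemble. Decorin (Dcn) and biglycan (Bgn) carry chondroitin or dermatan sulfate chains and also bind growth factors such as TGF-β, whereas lumican (Lum) carries keratan sulfate. Elastic fibres have a core of cross-linked elastin (Eln) on a scaffold of fibrillin microfibrils (Fbn1), and in liver they are known from portal tracts, vessel walls and fibrotic septa. MFAP4 and EMILIN1 sit at the surface of the fibres, fibulin 5 (Fbln5) brings elastin and the lysyl oxidase-like enzymes together, LTBP4 carries latent TGF-β and helps fibulin 5 and elastin to deposit, and fibulin 3 (Efemp1) belongs to the same fibulin family. In bulk liver, a change in the number of cells that make these mRNAs and a change in mRNA per cell cannot be told apart.

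In the GRCm38 annotation Dcn lies on the plus strand at chr10:97479500-97518162 (9 merged exon pieces) and Lum, on the same strand, at chr10:97565501-97572703 (3 pieces), so the end of Dcn and the start of Lum are 47339 bases apart. Bgn lies at chrX:73483602-73495933, Emilin1 at chr5:30913402-30921278, Efemp1 at chr11:28853204-28926743 and Mfap4 at chr11:61485431-61488900, all on the plus strand. Eln lies at chr5:134703781-134747241, Fbn1 at chr2:125300594-125507993, Fbln5 at chr12:101746565-101819055 and Ltbp4 at chr7:27305136-27337692, all on the minus strand. Exons of Mfap4 share 89 bases with Mapk7, and those of Fbn1 share 2442 bases with Gm9913, each on the opposite strand. Gm9913 had at most 4 counts in any mouse, and Mapk7 had at most 328. The strand setting of the counting is not given in the sources used here, so antisense reads cannot be told apart in those stretches. No other gene shared exon bases with the 10.

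RefSeq promoter entries on GRCm38.p6 matched Bgn, Fbn1, Fbln5, Efemp1, Emilin1 and Ltbp4 (6 of the 10 genes, 9 start sites). The 250 bases before the start are shown for 3 genes whose windows lie outside or at the edge of the annotated gene: Fbln5, which was higher in Adn-Lpin1-/- mice on both diets, and Bgn and Efemp1, which passed the test on the LFD. Capitals mark the GC box (GGGCGG on either strand, so CCGCCC as printed) and the AP-1 site (TGANTCA).
Bgn, chrX:73483351-73483600, plus strand: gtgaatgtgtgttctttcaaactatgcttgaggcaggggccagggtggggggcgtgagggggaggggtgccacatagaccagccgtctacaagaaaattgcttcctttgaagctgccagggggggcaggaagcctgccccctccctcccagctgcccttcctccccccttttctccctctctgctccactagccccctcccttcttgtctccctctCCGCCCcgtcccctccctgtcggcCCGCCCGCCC
Efemp1, chr11:28852955-28853204, plus strand: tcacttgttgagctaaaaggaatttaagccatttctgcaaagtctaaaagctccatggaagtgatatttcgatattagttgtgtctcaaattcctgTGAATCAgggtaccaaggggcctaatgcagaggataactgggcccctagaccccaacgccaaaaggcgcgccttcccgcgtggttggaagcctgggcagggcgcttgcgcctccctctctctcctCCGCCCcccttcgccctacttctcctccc
Fbln5, first start, chr12:101819120-101819369, minus strand: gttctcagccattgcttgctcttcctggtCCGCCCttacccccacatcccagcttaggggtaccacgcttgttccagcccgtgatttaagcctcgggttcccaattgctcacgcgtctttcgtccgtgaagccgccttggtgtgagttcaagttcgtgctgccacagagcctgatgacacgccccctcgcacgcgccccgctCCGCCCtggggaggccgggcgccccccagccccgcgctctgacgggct
The GC box occurred 3 times before Bgn, in the last 34 bases, 2 times before the first Fbln5 start and 1 time before Efemp1, and 32.7% of 32851 RefSeq promoters of the same length held at least 1. Of the windows not shown, those of Emilin1 and the second Fbln5 start held 0 GC boxes and that of Fbn1 held 1. The Ltbp4 starts held 3, 5 and 7, and the last 2 of these windows overlap. Efemp1 had 1 AP-1 match, which 6.75% of promoters held. TATAAA (12.4% of promoters) and GGAATG (12.6%), each searched on both strands, had no match in the windows of the 6 genes. The window before Bgn had 64.4% G and C and 7 CG dinucleotides, that of the first Fbln5 start 65.2% and 21, and that of Efemp1 53.6% and 10, against medians of 52.4% and 6 over all promoters. The second Fbln5 start had 49.6% and 6. Over all 9 windows the values ran from 49.6% to 79.2% and from 4 to 29. These matches describe the letters and say nothing of which factors bind.

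By level per length, the 10 genes fell into a steep order. In the deposited RPKM over the 20 mice, Dcn averaged 46.2 ± 12.0 (SD, n = 20 mice), Bgn 18.9 ± 5.72, Ltbp4 6.80 ± 2.27, Emilin1 3.99 ± 1.20, Efemp1 3.30 ± 1.22 and Lum 1.92 ± 0.860. The elastin core and its assembly genes were lower still: Fbln5 0.744 ± 0.412, Mfap4 0.719 ± 0.484, Eln 0.699 ± 0.464 and Fbn1 0.181 ± 0.0930 RPKM. Dcn exceeded Bgn, Bgn exceeded Ltbp4, Ltbp4 exceeded Emilin1, Efemp1 exceeded Lum, Lum exceeded Fbln5 and Eln exceeded Fbn1 in 20 of 20 mice. The other 3 pairs of neighbours did not differ beyond their spread: Emilin1 exceeded Efemp1 in 16 of 20 mice (log2 ratio 0.29 ± 0.33), Fbln5 exceeded Mfap4 in 12 of 20 (0.20 ± 0.63), and Mfap4 exceeded Eln in 9 of 20 (-0.019 ± 0.56). The order of these low genes was not the same in every group: Fbln5 exceeded Mfap4 in 5 of 5 WT LFD, 3 of 5 WT HFD and 2 of 5 mice of each Adn-Lpin1-/- group, and by group mean Mfap4 was below Eln and Fbln5 in both WT groups and above them in both Adn-Lpin1-/- groups. Of the summed RPKM of the 10 genes in a mouse, Dcn held between 51.1% and 64.1% and Bgn between 18.5% and 24.6%. Biglycan mRNA tracked decorin mRNA closely, with a log2 ratio of RPKM of -1.38 ± 0.076 (SD, n = 5 here and in the next values) on the LFD and -1.37 ± 0.25 on the HFD in WT mice, and of -1.26 ± 0.09 and -1.20 ± 0.056 in Adn-Lpin1-/- mice. The ratio of Lum to its neighbour Dcn lay between -5.36 and -4.68 in WT LFD and between -4.56 and -4.05 in Adn-Lpin1-/- LFD, with no overlap, and the ranges on the HFD overlapped, from -5.26 to -4.37 and from -5.03 to -4.23.

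**Figure D1:**
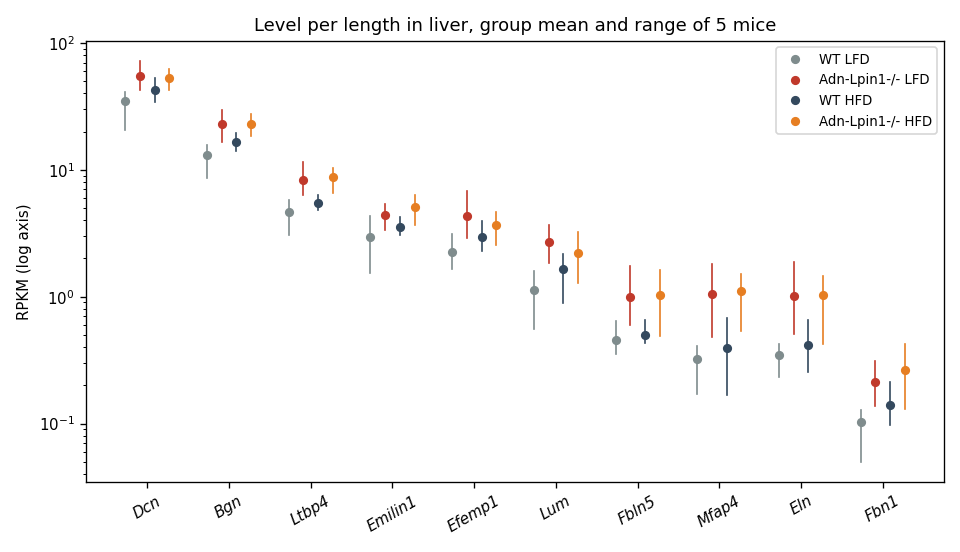
Deposited RPKM of the 10 genes on a log axis, ordered by the mean of 20 mice. Points are group means and lines the range of 5 mice per group. Dcn averaged 46.2 RPKM and Fbn1 0.181 RPKM, and the ranges of Fbln5, Mfap4 and Eln overlapped.

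The comparison of genotypes on the LFD asked which of these matrix genes differ in liver when lipin 1 is lost from adipocytes without a high-fat diet. All 10 had a higher mean in Adn-Lpin1-/- mice, and all but Emilin1 passed the test, with 1.49-fold for Dcn to 3.06-fold for Mfap4. Thus 9 of 10 genes had an adjusted p of at most 0.05 (edgeR, quasi-likelihood, Benjamini-Hochberg over the 13052 genes tested), where 6.27% of all tested genes were called higher. Because the 10 genes were chosen with earlier results known, their share beside that of all genes is a description and not a test. The median log2 fold change of the 10 genes was 0.90, and that of all genes tested was 0.0065. The 5 Adn-Lpin1-/- mice were all above the highest WT mouse for 6 of the 10 genes (Lum, Bgn, Eln, Fbn1, Mfap4 and Ltbp4), as for 3.89% of genes tested.

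**Figure D2:**
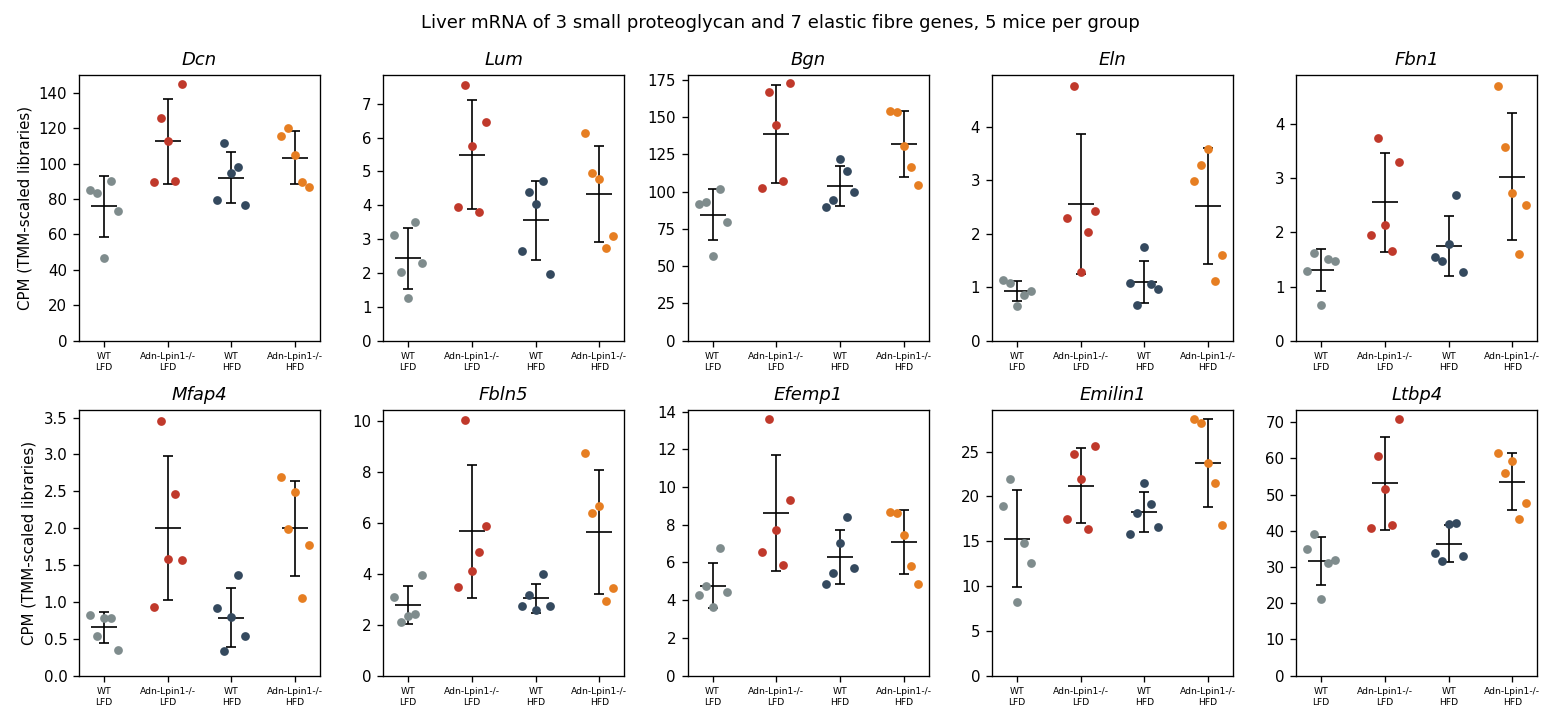
CPM on TMM-scaled libraries for each gene (linear axes from 0). Dots are single mice in order of mouse number, bars the group mean and SD of 5 mice. On the LFD the 2 genotypes do not overlap for Lum, Bgn, Eln, Fbn1, Mfap4 and Ltbp4, and on the HFD for Ltbp4.

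Among the small proteoglycans on the LFD, Lum changed most. Lum was 3.11, 2.02, 1.25, 3.52 and 2.29 CPM in WT mice 1 to 5 (CPM here and below on TMM-scaled libraries) and 3.94, 7.54, 5.74, 3.81 and 6.47 CPM in Adn-Lpin1-/- mice 1 to 5. The highest WT mouse lay just below the lowest Adn-Lpin1-/- mouse. The log2 fold change of Lum was 1.17 (standard error 0.29, adjusted p = 0.0119 from edgeR). Dcn was 85.1, 83.6, 46.6, 90.3 and 73.4 CPM in WT mice and 89.5, 126, 113, 89.9 and 145 CPM in Adn-Lpin1-/- mice. Adn-Lpin1-/- mice 1 and 4 were level with the upper WT mice, and the other 3 lay above all of them. Dcn had a log2 fold change of 0.57 (standard error 0.16, adjusted p = 0.0256 from edgeR). Bgn rose from 84.5 ± 17.2 to 139 ± 32.8 CPM (SD, n = 5), a log2 fold change of 0.71 (standard error 0.16, adjusted p = 0.00666 from edgeR).

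The elastin core, a protein at its surface and an assembly protein were also higher on the LFD. Eln was 1.13, 1.08, 0.655, 0.860 and 0.937 CPM in WT mice and 2.29, 4.76, 1.29, 2.04 and 2.43 CPM in Adn-Lpin1-/- mice. All Adn-Lpin1-/- mice were above WT, with mouse 2 far above the rest, and the log2 fold change was 1.45 (standard error 0.35, adjusted p = 0.00977 from edgeR). Mfap4 was 0.823, 0.540, 0.774, 0.782 and 0.345 CPM in WT mice and 0.928, 3.45, 1.58, 2.46 and 1.57 CPM in Adn-Lpin1-/- mice. Mouse 1 of Adn-Lpin1-/- LFD was only just above the WT range, and the log2 fold change was 1.62 (standard error 0.38, adjusted p = 0.00828 from edgeR). Fbln5 was 3.09, 2.11, 2.35, 2.42 and 3.94 CPM in WT mice and 3.49, 10.1, 4.10, 4.86 and 5.88 CPM in Adn-Lpin1-/- mice. All but mouse 1 of the Adn-Lpin1-/- mice exceeded the highest WT mouse, and the log2 fold change was 1.03 (standard error 0.30, adjusted p = 0.0277 from edgeR). These low genes rest on few reads, from 14 to 32 counts of Mfap4 and from 22 to 48 counts of Eln in WT LFD mice.

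Of the microfibril, fibulin 3 and latent TGF-β genes, 3 of 4 passed the test on the LFD. Ltbp4 was 35.0, 39.0, 21.2, 31.0 and 31.9 CPM in WT mice and 40.8, 60.6, 51.6, 41.5 and 71.0 CPM in Adn-Lpin1-/- mice on the LFD, which did not overlap, and had the lowest adjusted p of the 10 genes (0.00477 from edgeR, log2 fold change 0.75, standard error 0.16). Fbn1 rose from 1.31 ± 0.385 to 2.56 ± 0.909 CPM (SD, n = 5), a log2 fold change of 0.96 (standard error 0.30, adjusted p = 0.0399 from edgeR). Efemp1 rose from 4.78 ± 1.17 to 8.61 ± 3.09 CPM (log2 fold change 0.85, standard error 0.23, adjusted p = 0.0171 from edgeR). Emilin1, the elastin microfibril interface protein, averaged 15.3 ± 5.40 CPM in WT and 21.2 ± 4.17 CPM in Adn-Lpin1-/- mice, and its log2 fold change of 0.47 (standard error 0.20) did not pass the test (adjusted p = 0.128 from edgeR). In two-sided exact permutation tests of single genes over the 10 LFD mice, p was 0.00794, the smallest that 5 mice against 5 allow, for Lum, Bgn, Eln, Fbn1, Mfap4 and Ltbp4. It was 0.0159 for Fbln5, 0.0238 for Dcn and Efemp1, and 0.0873 for Emilin1 (exact permutation tests). These exact p were not adjusted for the number of genes tested.

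Single libraries weighed on how many genes passed on the LFD. WT LFD mouse 3 was the lowest of its group for 8 of the 10 genes, and Adn-Lpin1-/- LFD mice 2 and 5 were between them the highest of theirs for all 10 (6 and 4). Without WT LFD mouse 3, or without Adn-Lpin1-/- LFD mouse 2, 3.37% and 3.57% of all genes tested were called higher, against 6.27% with all mice. Of the 10 genes, 5 were called in both cases (Bgn, Eln, Ltbp4, Lum and Mfap4). Those 5 were also called under every one of the 31 alternative fits on the LFD. Fbn1 was called in 20 of 31, Fbln5 in 25, Dcn in 27, Efemp1 in 29 and Emilin1 in 2. With counts thinned to the smallest total, Bgn, Eln, Ltbp4, Dcn, Lum, Efemp1, Mfap4 and Fbln5 were called on the LFD. WT LFD mouse 3 had the fewest counts of all single mice, 36260187. It was also lowest in its group for the summed markers of stellate cells (63.4 CPM against 93.8 to 122 CPM) and of endothelium (70.6 CPM against 90.1 to 123 CPM). The part of these cells in the result was not tested.

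On the HFD the same question had a narrower answer. Eln, Mfap4, Fbln5 and Ltbp4 were higher in Adn-Lpin1-/- mice (4 of 10 called, all higher, against 9.87% of all genes tested called higher), and the median log2 fold change of the 10 genes was 0.47, against 0.0023 over all genes. The genotypes did not overlap for Ltbp4 only, as for 5.78% of genes tested. Ltbp4 was 33.7, 31.5, 41.7, 42.2 and 33.1 CPM in WT and 61.5, 56.0, 59.4, 43.3 and 47.6 CPM in Adn-Lpin1-/- mice, a log2 fold change of 0.55 (standard error 0.16, adjusted p = 0.0225 from edgeR). Mfap4 was 0.912, 0.328, 0.795, 1.37 and 0.531 CPM in WT and 2.69, 1.98, 2.49, 1.05 and 1.77 CPM in Adn-Lpin1-/- mice, a log2 fold change of 1.35 (standard error 0.37, adjusted p = 0.0160 from edgeR). Only mouse 4 of Adn-Lpin1-/- HFD fell within the WT range for Mfap4.

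Eln on the HFD was 1.08, 0.673, 1.75, 1.06 and 0.976 CPM in WT and 2.99, 3.28, 3.58, 1.12 and 1.60 CPM in Adn-Lpin1-/- mice (log2 fold change 1.18, standard error 0.34, adjusted p = 0.0214 from edgeR). Fbln5 was 2.75, 3.19, 2.58, 3.98 and 2.72 CPM in WT and 8.77, 6.40, 6.68, 2.92 and 3.44 CPM in Adn-Lpin1-/- mice (log2 fold change 0.89, standard error 0.29, adjusted p = 0.0405 from edgeR). In both genes mice 1, 2 and 3 of Adn-Lpin1-/- HFD were above all WT mice, and mice 4 and 5 lay inside the WT range. Fbn1 averaged 1.75 ± 0.557 CPM in WT and 3.02 ± 1.17 CPM in Adn-Lpin1-/- mice and did not pass the test (log2 fold change 0.79, adjusted p = 0.0642 from edgeR). The small proteoglycans did not pass either: Bgn had a log2 fold change of 0.34 (standard error 0.16, adjusted p = 0.146 from edgeR), Lum 0.29 (standard error 0.29, adjusted p = 0.511 from edgeR) and Dcn 0.17 (standard error 0.16, adjusted p = 0.502 from edgeR). Emilin1 (0.38) and Efemp1 (0.17) had adjusted p = 0.194 and 0.628 in the same edgeR test. The exact permutation p on the HFD, also not adjusted, was 0.00794 for Ltbp4, 0.0159 for Mfap4, 0.0397 for Eln, 0.0476 for Bgn, 0.0556 for Fbn1 and 0.0635 for Fbln5 and Emilin1, and between 0.254 and 0.429 for Dcn, Lum and Efemp1.

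**Figure D3:**
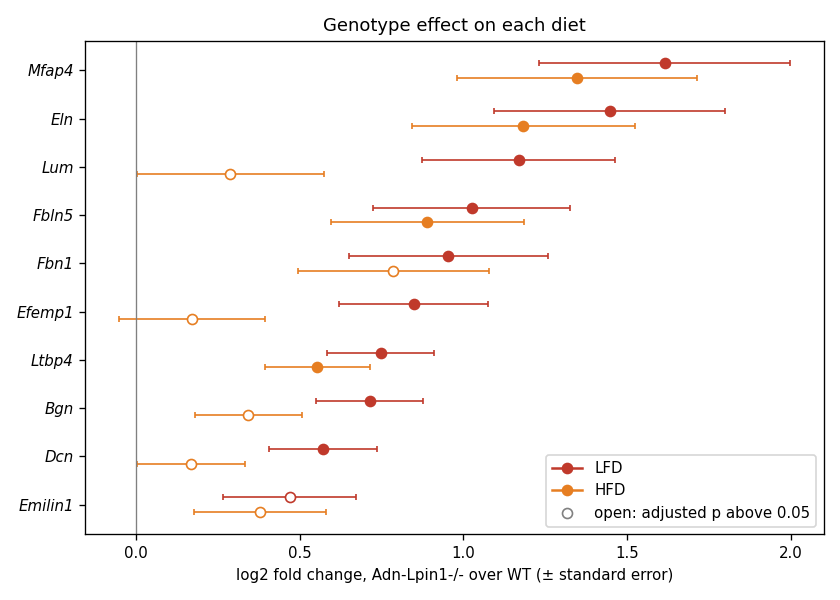
Log2 fold change of Adn-Lpin1-/- over WT with its standard error (edgeR) on the LFD and the HFD, 5 mice per group. Filled points have an adjusted p at or below 0.05. Mfap4 is highest on both diets, at 1.62 and 1.35, and Dcn, Lum, Bgn, Fbn1 and Efemp1 are filled on the LFD and open on the HFD.

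The Adn-Lpin1-/- HFD mice differed among themselves in these genes. Mice 1, 2 and 3 of Adn-Lpin1-/- HFD were above the mean of the 20 mice for 10 of 10 genes, and mice 4 and 5 for 3 and 4 genes. The same 3 mice had summed adipocyte markers of 153, 191 and 72.9 CPM, against 13.3 and 13.1 CPM in mice 4 and 5 and 6.82 to 40.6 CPM in the other groups. Their summed stellate cell markers were 198, 170 and 150 CPM, against 137 and 122 CPM in mice 4 and 5, and their summed endothelial markers 153, 165 and 154 CPM, against 136 and 148 CPM. The part of these cells in the result was not tested. Nearly all of the adipocyte sum in mice 1 to 3 was Cfd, the adipokine adipsin, at 146, 183 and 68.5 CPM, against 6.89 and 3.90 CPM in mice 4 and 5. The other adipocyte markers, Adipoq, Plin1, Lep and Retn, were at most 0.0704 CPM in the 5 Adn-Lpin1-/- HFD mice, and Adrb3 was at a median of 6.90 CPM there and 10.1 CPM in WT LFD. With the 3 mice left out, which left 2, no gene was called on the HFD (0 of 10), where 2.18% of all genes tested in that fit were called higher, and the log2 fold change was 0.86 for Mfap4, 0.32 for Ltbp4, 0.31 for Eln and 0.068 for Fbln5. This fit was chosen after seeing the data. Leaving out Adn-Lpin1-/- mouse 2 alone, or WT mouse 2 alone, left only Mfap4 (1 gene), where 5.74% and 6.93% of all genes tested were called higher. Leaving out Adn-Lpin1-/- mouse 1 or 3 or WT mouse 1 or 5 left 2 genes, where between 6.85% and 8.65% of all genes were. With all mice that share was 9.87%. Mfap4 was called in 30 of 31 alternatives, Eln in 26, Ltbp4 in 24, Fbln5 in 19 and Fbn1 in 4.

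**Figure D4:**
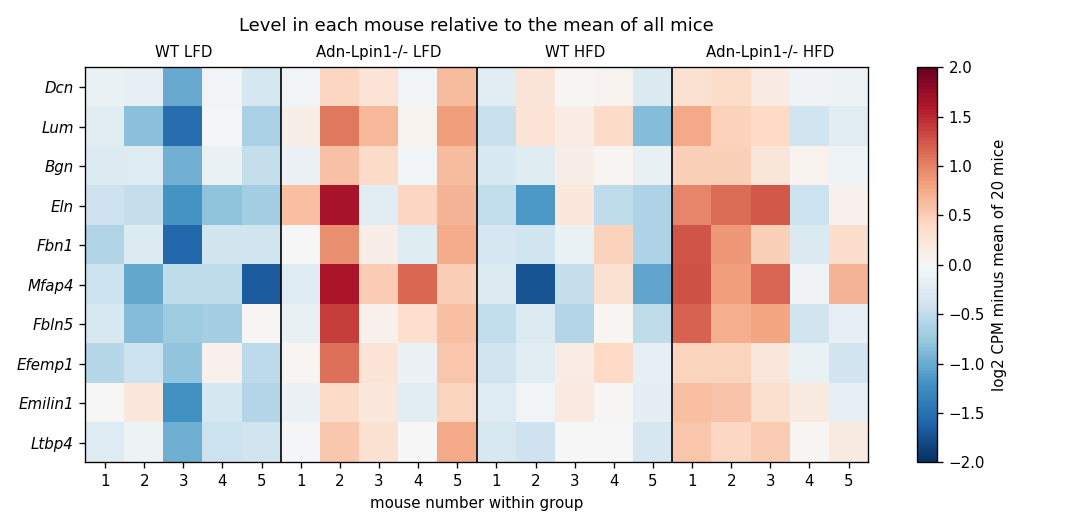
Log2 CPM of each gene in each mouse minus its mean over the 20 mice, with red above and blue below the mean. Mice 1 to 3 of Adn-Lpin1-/- HFD are red in all 10 genes, mice 4 and 5 are near the mean, and mouse 3 of WT LFD is the lowest of its group in 8 genes.

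Diet by itself moved none of the 10 genes past the test. In WT mice all 10 had a positive log2 fold change of HFD over LFD, from 0.13 for Fbln5 and 0.21 for Ltbp4, through Eln 0.24, Emilin1 0.25, Mfap4 0.27, Dcn 0.28, Bgn 0.30, Efemp1 0.40 and Fbn1 0.41, to 0.54 for Lum. None was called by edgeR (0 of 10, lowest adjusted p = 0.393, against 1.10% of all genes tested), 0 of 10 had an unadjusted p below 0.05 (15.8% of all genes did), and DESeq2 and voom called 0 as well. Without WT LFD mouse 3 the change fell to 0.15 for Dcn, 0.38 for Lum, 0.18 for Bgn, 0.095 for Emilin1 and 0.091 for Ltbp4. The other genes fell most without a WT HFD mouse, Mfap4 to -0.017. The 10 genes varied together among mice, so their shared sign is not 10 separate observations. In Adn-Lpin1-/- mice the log2 fold changes were 0.24 for Fbn1, 0.16 for Emilin1, 0.012 for Ltbp4, 0.0037 for Mfap4, -0.0086 for Fbln5, -0.022 for Eln, -0.073 for Bgn, -0.12 for Dcn, -0.28 for Efemp1 and -0.34 for Lum. Again edgeR called 0 of 10 (lowest adjusted p = 0.577, against 2.46% of all genes tested), 0 had an unadjusted p below 0.05 (16.1% of all genes did), and DESeq2 and voom called 0.

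The genotype effect on the HFD minus that on the LFD (the interaction term) was negative for all 10 genes. The differences were largest for Lum (-0.88, standard error 0.41) and Efemp1 (-0.68, standard error 0.32), and next for Dcn (-0.40), Bgn (-0.37), Mfap4 (-0.27), Eln (-0.26), Ltbp4 (-0.19), Fbn1 (-0.17), Fbln5 (-0.14) and Emilin1 (-0.091). None was called by edgeR, DESeq2 or voom (0 of 10, lowest adjusted p = 0.687 from edgeR). Of all genes tested, edgeR and voom without the pools called 0%, DESeq2 0.230% and voom with the pools 1.45%. Lum and Efemp1 were the 2 genes with an unadjusted p below 0.05, as 7.19% of all genes tested had. The test therefore does not show that the genes called on the LFD alone responded less on the HFD. Leaving out 1 mouse turned the sign of this difference for Eln, Fbn1, Mfap4, Fbln5 and Emilin1.

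The pools of liver RNA, which were left out of the tests because they repeat the mice, lay inside the range of their own mice for all 10 genes in both Adn-Lpin1-/- groups and for 9 in each WT group, in CPM of the total counts. The exceptions were Mfap4 at 0.279 CPM in the WT LFD pool and Fbln5 at 2.27 CPM in the WT HFD pool, both below the mice. The Adn-Lpin1-/- pool was above the WT pool for all 10 genes on each diet, for Mfap4 at 2.82 CPM on the LFD.

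Several other genes of the same families also passed the test for genotype, each of them higher in Adn-Lpin1-/- mice. Their lists were also drawn up with earlier results of these data known, so the counts below are a description. Of 16 other small proteoglycan genes 8 were tested, and on the LFD 3 were higher in Adn-Lpin1-/- mice and 0 lower: fibromodulin (Fmod, log2 fold change 1.96), osteoglycin (Ogn, 1.21) and Prelp (0.58), which all bind collagen. On the HFD 3 others were higher and 0 lower: Podn (0.80), Omd (0.77) and Chad (0.66). Of 25 other elastic fibre genes 18 were tested, and 11 were higher and 0 lower on the LFD, led by fibulin 2 (Fbln2, 1.97), the elastin cross-linking enzyme Loxl1 (1.56) and the microfibril-associated Adamtsl2 (1.42). On the HFD 7 were higher and 0 lower, led by Fbln2 (1.48), Fbln7 (1.47) and Ltbp2 (1.27). The median log2 fold change of the 26 tested genes of both lists was 0.90 on the LFD and, on the HFD, 0.63, beside 0.0065 and 0.0023 over all genes. Together 14 of 26 were called for the LFD and 10 of 26 for the HFD, where 6.27% and 9.87% of all genes tested were called higher (8 without Adn-Lpin1-/- LFD mouse 2 and 9 without WT LFD mouse 3 on the LFD, and 2 without Adn-Lpin1-/- HFD mice 1 to 3 on the HFD). On the HFD the count fell to 4 without Adn-Lpin1-/- mouse 2, to 5 without Adn-Lpin1-/- mouse 1 or WT mouse 2 or 5, and to 6 without Adn-Lpin1-/- mouse 3 or WT mouse 1. The share of all genes called higher fell as well, to 3.57% without Adn-Lpin1-/- LFD mouse 2 and 3.37% without WT LFD mouse 3 on the LFD, and on the HFD to 2.18% without the 3 mice and to between 5.74% and 8.65% without 1 of these 6. Diet called 0 of the 26 in either genotype with edgeR, where 5 in WT and 0 in Adn-Lpin1-/- mice had an unadjusted p below 0.05, and DESeq2 and voom each called 2 in WT. Of all genes tested, edgeR called 1.10% by diet in WT and 2.46% in Adn-Lpin1-/- mice, and 15.8% and 16.1% had such a p. In WT, DESeq2 called 3.06% of all genes and voom without the pools 5.13%.

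The enzymes that build the chondroitin and dermatan sulfate chains of decorin and biglycan were also looked at, and passed the test about as often as genes at large. Of 20 such genes 14 were tested, whose median log2 fold change was 0.17 with either diet, and 6 (LFD) and 5 (HFD) of them had an unadjusted p below 0.05. Of all genes tested, 28.9% (LFD) and 33.2% (HFD) had such a p in the same edgeR test. On the LFD the chondroitin synthase Chsy3 was lower (-0.73, adjusted p = 0.0232 from edgeR) and 0 were higher, where 8.11% of all genes tested were called lower. On the HFD the dermatan 4-O-sulfotransferase Chst14 (0.82, adjusted p = 0.0499 from edgeR) and the linker enzyme B4galt7 (0.21, adjusted p = 0.0441 from edgeR) were higher and 0 were lower, where 9.87% of all genes were called higher. These 3 calls changed with the mouse left out, between 0 and 3 genes on the LFD and between 0 and 3 on the HFD. Of all genes tested, 9.27% to 15.0% and 11.4% to 21.1% were called in either direction in those fits.

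**Figure D5:**
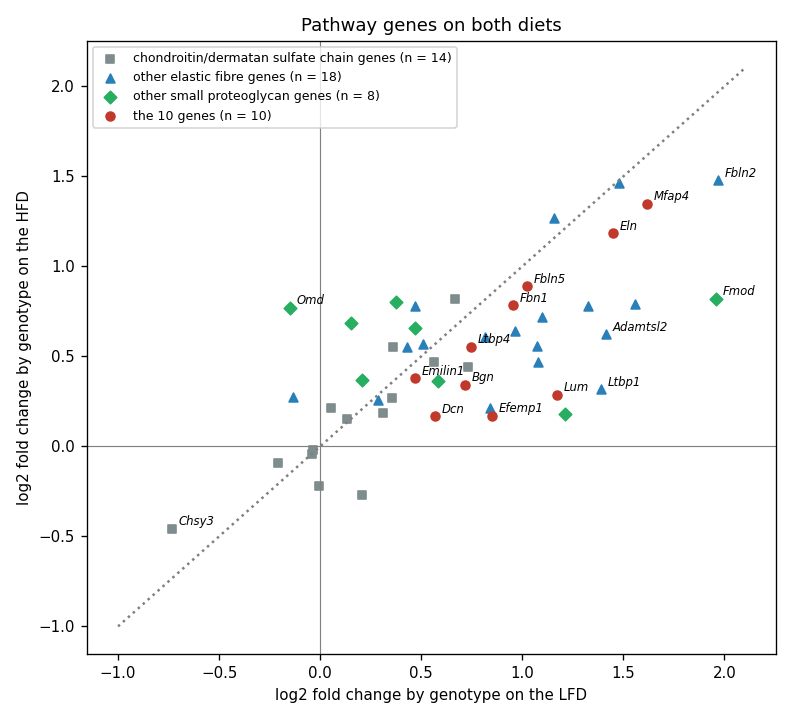
Log2 fold change of Adn-Lpin1-/- over WT, with the LFD on the horizontal and the HFD on the vertical axis, for the 10 genes and for 3 lists of pathway genes that passed the limit on low counts. The dotted line marks equal change on both diets. The 10 genes all lie above 0 on both axes and below the dotted line, and the sulfate chain genes lie between -0.73 and 0.82 on both axes.

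Mice of one group also varied together in these genes. After the group mean was taken from log2 CPM, the median Pearson r over the 45 pairs of the 10 genes was 0.65 over 20 mice, with 33 pairs above 0.5, where 8.26% of the pairs of one of the 10 genes with any other tested gene were. This is a description over libraries that share depth and scaling. The highest r was 0.89, for Bgn with Ltbp4. Dcn with Lum, the neighbours on chromosome 10, had 0.88. Mfap4 stood apart, with r of 0.11 with Dcn and 0.17 with Emilin1, and an r of 0.42 with the mean of the other 9 genes, where those of the other genes were between 0.68 and 0.90. Its highest r were 0.54 with Eln, 0.50 with Fbln5 and 0.48 with Efemp1. Mfap4 also had the fewest reads of the 10 genes, 14 to 212 counts in a mouse, and the part of low counts in its r was not tested. The 5 tested genes most like the mean profile of the 10 were Timp2 (r 0.97), Col6a3 (0.96), Itga8 (0.96), Col5a1 (0.94) and Col6a2 (0.94) over 20 mice. Timp2 encodes a metalloproteinase inhibitor, Itga8 an integrin subunit, and the others collagen chains.

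Markers of the cells that could make these mRNAs gave the following. Beside the counts below, 6.27% (LFD) and 9.87% (HFD) of all genes tested were called higher, and 8.11% and 8.78% lower. Of 8 stellate cell markers, all tested, Pdgfrb alone was called higher on each diet, and their sum ranged from 63.4 to 122 CPM in WT and from 98.1 to 157 CPM in Adn-Lpin1-/- mice on the LFD, and from 119 to 158 CPM and 122 to 198 CPM on the HFD. Of 8 portal fibroblast markers 4 were tested, and 2 (Gas6 and Dpt) were called higher on the LFD and 0 on the HFD. Their sum was 32.1 to 52.7 CPM in WT LFD and 54.4 to 94.3 CPM in Adn-Lpin1-/- LFD, and 27.1 to 59.0 CPM and 38.3 to 74.7 CPM on the HFD, with 3 of the 8 markers under 1 CPM in every mouse. Most of this sum was Gas6, at a median of 31.2 CPM in WT LFD and 63.0 CPM in Adn-Lpin1-/- LFD. On the LFD the medians of Thy1, Gli1 and Pi16 were lower in Adn-Lpin1-/- mice. Those of Entpd2, Cd34, Clec3b, Dpt and Gas6 were higher. Of 6 smooth muscle markers 4 were tested and 2, Acta2 and Tagln, were called higher on each diet (sum 9.47 to 18.4 CPM in WT and 18.1 to 24.9 CPM in Adn-Lpin1-/- mice on the LFD, then 12.9 to 18.2 CPM and 13.9 to 30.4 CPM on the HFD). Of 8 mesothelial markers 5 were tested and 1, Krt8, which hepatocytes also express, was called higher on the LFD and 0 on the HFD, while Msln had a median of 0.179 CPM in WT LFD and 0.478 CPM in Adn-Lpin1-/- LFD. Adn-Lpin1-/- LFD mouse 2, the highest of its group for 6 of the 10 genes, was also the highest of its group for all 8 mesothelial markers, with Msln at 3.43 CPM, Upk3b at 4.47 CPM and Wt1 at 2.47 CPM, against at most 1.46, 1.98 and 0.615 CPM in the other 4 mice. Endothelial markers were called higher for 3 of 6 (LFD) and 4 of 6 (HFD), and macrophage markers for 0 of 6 and 5 of 6. Of 6 cholangiocyte markers 0 were called on either diet, and of 6 hepatocyte markers 0 were called on the LFD and 3 were lower on the HFD (Alb, Apoa1 and Cyp2e1). Of the adipocyte markers Cfd was called higher on each diet and Adrb3 lower on the LFD. The part of these cell types in the changes was not tested.

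GC content also moved with genotype. Over all tested genes, the log2 level of each gene in a library was taken minus its mean over all single-mouse libraries. The Spearman correlation of this relative level with GC content was between 0.071 and 0.30 in the 10 Adn-Lpin1-/- mice. It was between -0.37 and 0.012 in the 10 WT mice. These values compare libraries with each other, and do not give the correlation of the level itself with GC content. The 10 genes span 40.1% (Dcn) to 62.2% (Ltbp4) G and C. With this trend removed the log2 fold change on the LFD was 0.75 for Dcn and 0.66 for Ltbp4, and 8 genes were called, without Fbn1. On the HFD it was 0.37 for Dcn and 0.41 for Ltbp4, and 3 genes were called (Eln, Mfap4 and Fbln5), since Ltbp4 no longer passed. Of all genes in that fit, 5.44% were called higher on the LFD and 7.80% on the HFD.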

How the data were processed

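Liver RNA from 20 single mice, 5 in each of 4 groups, was used, and 4 libraries of pooled RNA, which repeat the same mice, stayed out of the main tests. The authors selected poly(A) RNA, aligned reads to GRCm38 with STAR 2.5.1a, and counted uniquely aligned reads on Ensembl release 76 genes with featureCounts 1.4.6-p5, and the deposited count is the raw number of reads per gene. The deposited RPKM is that count per kilobase of merged exons and scaled to the total of counted reads, and it was used for the order of levels only. From the counts, 355 rRNA genes were left out, a gene needed more than 1 CPM in 4 or more libraries (13052 genes did), and libraries were scaled by TMM. The main test was that of edgeR 4.0.16 (R 4.3.3, quasi-likelihood test, 4 group means in 1 fit, Benjamini-Hochberg adjustment, threshold 0.05). Single genes were also tested by two-sided exact permutation of 5 mice against 5 on the mean log2 CPM (prior count 0.5), with no adjustment of p. Labels name separate animals, so n counts mice. Python 3.11.15 (numpy 2.4.6, pandas 2.3.3, scipy 1.17.1, matplotlib 3.10.9) made the other tables.

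The alternatives were DESeq2's size factors, DESeq2 1.42.0's Wald test, voom of limma 3.58.1 with quality weights (with and without pools), no limit and edgeR's default limit on low counts, a fit of just the groups being compared, a replicate block, the GC trend removed (lowess span 0.3), counts thinned to the smallest total, and each mouse left out in turn. The fit without the Adn-Lpin1-/- HFD mice with over 50 CPM of adipocyte markers was added after seeing the data. The edgeR, voom, DESeq2 and GC trend fits were also run on simulated counts, scored for genotype on the LFD. Genes were drawn independently there, with no outlying mouse and no GC trend, so that run does not cover these features of the data. The 10 genes and all lists were chosen with earlier results of these data known. All 10 genes were named in every comparison, and of the other lists at most 3 called genes in each direction with the largest fold change. Depth, between 36260187 and 81072794 counts a mouse, leaves 14 to 212 counts of Mfap4 in a mouse. Symbols were found for 97.5% of 41388 genes.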

Additional observations from a re-analysis of the deposited data

Results flagged for a closer look

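Over 40 sets of 5 mice (10 genes in 4 groups), 1 held a mouse far from the other 4 by Dixon's test, where chance gives about 1 in 20 sets. Fbn1 was at 0.655 CPM in mouse 3 of WT LFD, and the other 4 mice of that group were between 1.29 and 1.62 CPM. The same mouse was lowest in its group for 8 of the 10 genes.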

How the results depend on the processing

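By genotype, all 10 genes kept a positive log2 fold change on the LFD in all 31 alternatives, and on the HFD in all but the fit without Adn-Lpin1-/- HFD mice 1 to 3. That fit called 0 of the 10 genes on the HFD and gave log2 fold changes of -0.058 for Dcn, -0.28 for Lum and -0.23 for Efemp1 there. For diet in Adn-Lpin1-/- mice it gave -0.32 for Fbn1, -0.50 for Mfap4, -0.16 for Emilin1 and -0.23 for Ltbp4, which turned sign, and -0.93 for Lum, -0.91 for Eln, -0.84 for Fbln5, -0.70 for Efemp1, -0.36 for Dcn and -0.34 for Bgn, with 0 of 10 called. It called 2 of the other small proteoglycan and elastic fibre genes by genotype on the HFD and 1 by diet in WT, and of the sulfate chain genes 3 for the LFD and 0 for the HFD. Of all genes in that fit, 3.98% were called on the HFD, 1.26% by diet in WT and 15.4% on the LFD, in either direction. With 1 mouse left out, 5 to 9 of the 10 genes passed for genotype on the LFD, 1 to 5 passed on the HFD, and voom with quality weights called 2 on the HFD. Of all genes tested, 3.37% to 6.52% were called higher on the LFD with 1 mouse left out. On the HFD 5.74% to 10.7% were, and 9.76% with voom.

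For the other small proteoglycan and elastic fibre genes the counts with 1 mouse left out were 8 to 17 on the LFD, 4 to 12 on the HFD and 0 to 1 by diet in WT. Of all genes tested, 9.27% to 15.0%, 11.4% to 21.1% and 0.422% to 2.22% were called in either direction in those fits. Voom with the pools called 16 on the HFD, 4 by diet in WT and 1 by diet in Adn-Lpin1-/- mice, and DESeq2 and voom each called 2 by diet in WT. Over all genes tested, voom with the pools called 36.3%, 14.8% and 17.9% in these comparisons, in either direction. By diet in WT, DESeq2 called 3.06% of all genes and voom without the pools 5.13%. On the HFD 6 were called with only 2 groups, with the replicate block, or with the GC trend removed. These fits called 15.2%, 15.4% and 15.8% of all genes in either direction. Of the sulfate chain genes on the LFD, DESeq2 called 4, voom with the pools 7, and 2 were called with only 2 groups, the replicate block, the GC trend removed or thinning (0 to 3 with 1 mouse left out). In that comparison DESeq2 called 17.2% of all genes, voom with the pools 31.9%, and the fits that called 2 between 11.7% and 13.7%. On the HFD, DESeq2's size factors, voom and thinning each called 1 and voom with the pools 6, while no limit, the default limit, the block and the GC trend removed each called 0 (0 to 3 with 1 mouse left out). Of all genes, DESeq2's size factors and voom each called 18.7%, thinning 17.3% and voom with the pools 36.3%. The fits that called 0 of the list called 6.53% to 15.8% of all genes.

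Small changes turned sign. For diet in Adn-Lpin1-/- mice, Mfap4 was -0.0012 with DESeq2, -0.15 with voom and pools, -0.0027 with the default limit, -0.0075 with the GC trend removed and -0.048 with thinning. Eln was 0.085 with voom and 0.043 with voom and pools, Fbln5 0.0087 with voom and 0.0060 with the block, and Ltbp4 -0.0025 with thinning. With 1 mouse left out the ranges were -0.17 to 0.018 for Bgn, -0.19 to 0.33 for Eln, -0.18 to 0.29 for Mfap4, -0.22 to 0.30 for Fbln5 and -0.074 to 0.14 for Ltbp4, and -0.017 to 0.47 for Mfap4 by diet in WT. For the interaction they were -0.43 to 0.084 for Eln, -0.38 to 0.030 for Fbn1, -0.46 to 0.020 for Mfap4, -0.35 to 0.17 for Fbln5 and -0.27 to 0.060 for Emilin1. None of these had passed the test.

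The labels link mice with the same number in 2 groups by nothing but that number. Over all genes tested, their deviations from the group means correlated above 0.1 in at most 2 of 5 pairs of any comparison. These r ran from -0.42 to 0.28. Pairs of different numbers were not compared, so a shared litter or batch cannot be told from these values. The replicate block left 7 (LFD) and 3 (HFD) of the 10 genes called, where 5.05% and 8.14% of all genes tested were called higher. Where a count moved, the cause was not tested. The order by level was the same for all 9 neighbouring pairs with CPM on TMM-scaled libraries per kilobase. Depth limits Mfap4, Eln and Fbn1 most, with a minimum of 14, 22 and 22 counts in a mouse.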
